A study of Rattus norvegicus with 7 samples.

Results

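The genes described here encode enzymes that remove reactive oxygen species or keep protein thiols reduced, with the glutathione and thioredoxin systems that feed them and the factor that controls many of them. They were chosen by gene symbol and not by expression, though with earlier results of these data known. Of the 14702 genes in the authors' table, 68 belong to the set. The data come from RNA sequencing of a laryngeal muscle, the thyroarytenoid, which gives the vocal fold its bulk; the 7 animals were Long Evans rats, female and 8 months old. The comparison set 3 rats with a homozygous knockout of Pink1 (Pink1-/-) against 4 wild-type (WT) rats of the same sex, age and strain. Pink1 encodes a kinase that marks damaged mitochondria for removal. The labels name no cell type to which the deletion was limited, and a sample of this muscle can also hold covering epithelium, gland and nerve. The results below are group comparisons from 1 table without values per rat, so no spread between animals can be given and the sequencing depth per sample is unknown.

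Superoxide, formed mainly as a by-product of respiration, is turned into hydrogen peroxide by superoxide dismutases. Peroxide is then removed by catalase, by glutathione peroxidases and by peroxiredoxins, which are recharged by glutathione or by thioredoxin, and both of these are restored with electrons from NADPH. Mitochondria hold a set of these enzymes of their own, encoded by nuclear genes separate from those of the cytosolic set, and many of the cytosolic enzymes are under the control of the transcription factor NRF2, encoded by Nfe2l2. Working muscle produces reactive oxygen species in both places.

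The knockout was visible in the targeted gene, which had an implied 8.94 CPM in Pink1-/- and 269 CPM in WT muscle (log2 fold change -4.91 in the authors' deposited table). CPM are counts taken relative to a size set for each library. The sources used here do not state how the authors scaled that size, so CPM need not add up to the same total in both genotypes. Implied CPM here means the level per genotype worked out from the authors' deposited table, which gives the mean level and the fold change, with library sizes taken as equal. A gene was called where its adjusted p, from the likelihood ratio test in the authors' deposited table, was under 0.05. Over all genes 448 (3.05%) were called, 201 (1.37%) higher and 247 (1.68%) lower in Pink1-/- muscle, and the median log2 fold change was -0.02. An approximate standard error (SE) and 95% interval were derived for each gene from its fold change and likelihood ratio. The likelihood ratios exceeded their chi-square expectation at the median by 1.96 times, and the intervals per gene are not widened for that. Over all genes, the summed implied CPM of Pink1-/- muscle exceeded that of WT muscle by 0.21 in log2 units, so a second scaling, with equal sums, lowers every log2 fold change by that amount.

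Among the 68 antioxidant genes, 3 were called, which is a share of the same order as the 3.05% of all genes. Prxl2b and the mitochondrial thioredoxin reductase gene Txnrd2 rose, and the glutathione transferase gene Gsta1 fell. The median log2 fold change over the set was 0.12, and 44 of 68 lay above 0 against 48.0% of all genes. At an unadjusted p under 0.05, 15 genes of the set were higher and 2 lower, together 17 of 68, against 9.04% higher and 7.99% lower (17.0% in all) over the table. An adjusted p under 0.1 was reached by 5 genes of the set (5.26% of all genes) and an adjusted p under 0.01 by 2 (1.20% of all genes). With a minimum mean log2 CPM of 1 and the adjusted p as deposited, the same 3 were called among 67 (2.70% of all genes kept). They were also called with p adjusted anew among the genes kept. With equal sums 2 were called, Prxl2b and Gsta1 (4.29% of all genes), and after division of the likelihood ratios by 1.96, their median excess over expectation, none was called (0.0952% of all genes), so the 3 calls rest on the deposited p-values being taken as they are. With equal sums the median was -0.093 and 32 of 68 lay above 0, against 28.6% of all genes. The 12 genes that lay above 0 as deposited and below 0 with equal sums were Cat, Gclm, Gpx1, Gss, Gstm1, Gstp1, Prdx1, Prdx2, Txndc9, Txnip, Txnl1 and Txnrd3, none of them called under either scaling. Within the set the values differed by the place of the protein: all 7 genes for mitochondrial enzymes lay above 0, with a median of 0.63, whereas the 35 genes for cytosolic enzymes had a median of 0.07 (-0.14 with equal sums) and lay on both sides of 0. This difference between medians was not tested, since a test needs values per rat.

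**Figure D1:**
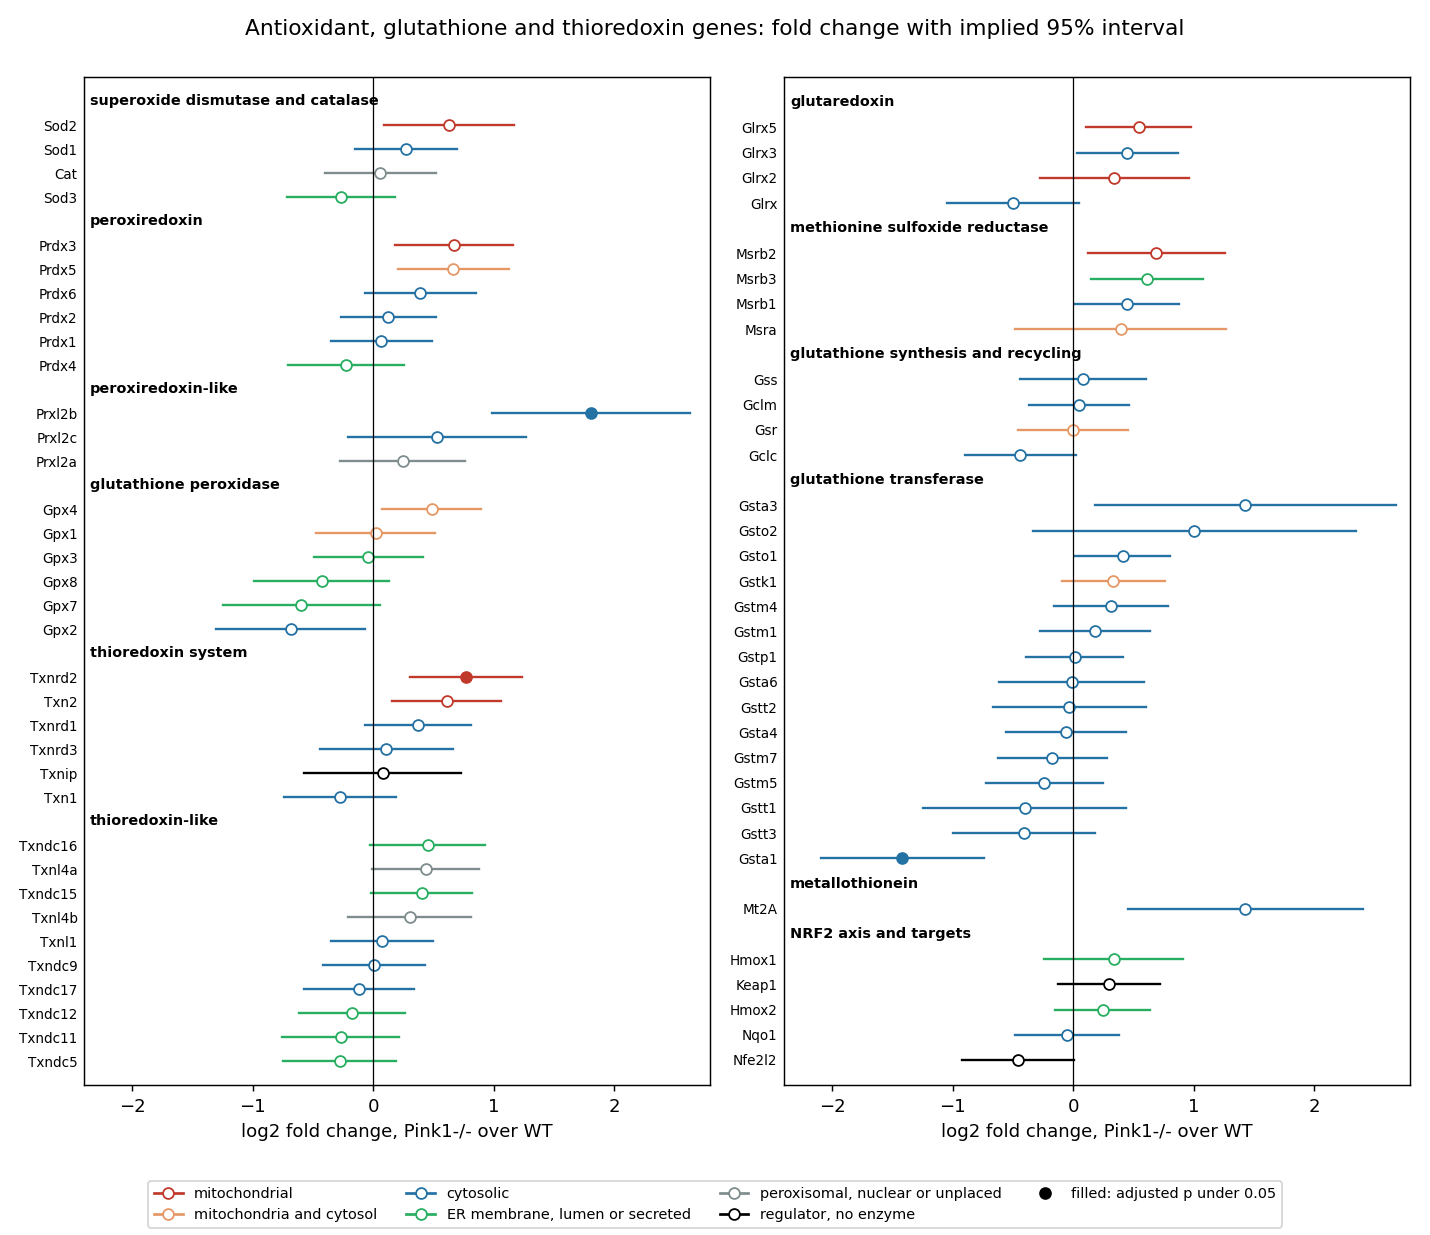
Log2 fold change of Pink1-/- over WT muscle (x axis) for the 68 genes, grouped by the role of the protein. Gstk1, of mitochondria and peroxisomes, shares the colour of the enzymes of mitochondria and cytosol. Points are the values of the authors' deposited table, bars the implied 95% interval, colours the place of the protein, and filled points the 3 genes with an adjusted p under 0.05 (Prxl2b, Txnrd2 and Gsta1); the 7 red mitochondrial points all sit right of 0.

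Prxl2b encodes a thioredoxin-fold protein related to peroxiredoxins that makes prostaglandin F from its endoperoxide precursor. It had an implied 44.1 CPM in Pink1-/- and 12.6 CPM in WT muscle, a 3.50-fold rise with a 95% interval from 1.98-fold to 6.18-fold. Its log2 fold change was 1.81 (adjusted p 0.00253 in the authors' deposited table), and the call held with equal sums (adjusted p 0.00914). Its relatives were not called: Prxl2c stood at 0.53 and Prxl2a at 0.25 in the authors' deposited table, with adjusted p-values of 0.497 and 0.697.

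Gsta1 encodes an alpha-class glutathione transferase, which joins glutathione to electrophiles and reduces lipid peroxides. Its implied level was 68.1 CPM in Pink1-/- and 182 CPM in WT muscle, 2.67-fold lower with a 95% interval from 1.67-fold to 4.26-fold lower. Its log2 fold change was -1.42 (adjusted p 0.00465 in the authors' deposited table), and the call held with equal sums (adjusted p 3.92e-04). Alpha-class genes have near-identical copies, Gsta2 and Gsta5 were not found among the genes of the table, and reads may have been split or pooled between copies, so this value is uncertain. Most measured markers of the mucosal covering of the vocal fold lay lower in the same comparison. All 9 measured markers of squamous epithelium, of 10 listed, lay below 0 with a median of -1.31, their summed implied level was 902 CPM in Pink1-/- and 1992 CPM in WT muscle, and 2 of them, Krt13 and Dsc3, were called lower; with equal sums 5 were, against 3.86% of all genes. Of 9 measured markers of respiratory epithelium and gland, of 10 listed, 7 lay below 0 and 2, Bpifb1 and Tff2, were called lower, with summed levels of 5862 CPM in Pink1-/- and 13639 CPM in WT muscle. That order of the sums rests on Muc5b, an uncalled mucin gene with 633 CPM in Pink1-/- and 10735 CPM in WT muscle. Without Muc5b, a step chosen after the values were seen, the other 8 markers summed to 5228 CPM in Pink1-/- and 2904 CPM in WT muscle, most of it in Bpifa1, which had 4714 CPM in Pink1-/- and 944 CPM in WT muscle and was not called. Implied levels cannot be 0, so absence of a marker could not be read from them; Trp63 and Foxj1 were not found. Lower values were not limited to epithelium. All 8 markers of Schwann cell and nerve lay below 0, with a median of -1.36 and 5 called lower, against 1.68% of all genes. All 6 measured fibroblast markers, of 7 listed, lay below 0 with a median of -0.51, and none was called. The endothelium, macrophage and erythrocyte lists had medians above 0, and adipocyte markers lay on both sides. The part of epithelium, nerve or any other tissue in the fall of Gsta1 was not tested. In bulk tissue, fewer cells of a type and less RNA per cell cannot be told apart.

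Txnrd2 encodes the mitochondrial thioredoxin reductase, a selenoprotein that passes electrons from NADPH to thioredoxin in the matrix. It had an implied 33.6 CPM in Pink1-/- and 19.7 CPM in WT muscle, a 1.71-fold rise with a 95% interval from 1.24-fold to 2.36-fold. The adjusted p was 0.0421 in the authors' deposited table, close to the threshold, and with equal sums the call ended (adjusted p 0.141).

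**Figure D2:**
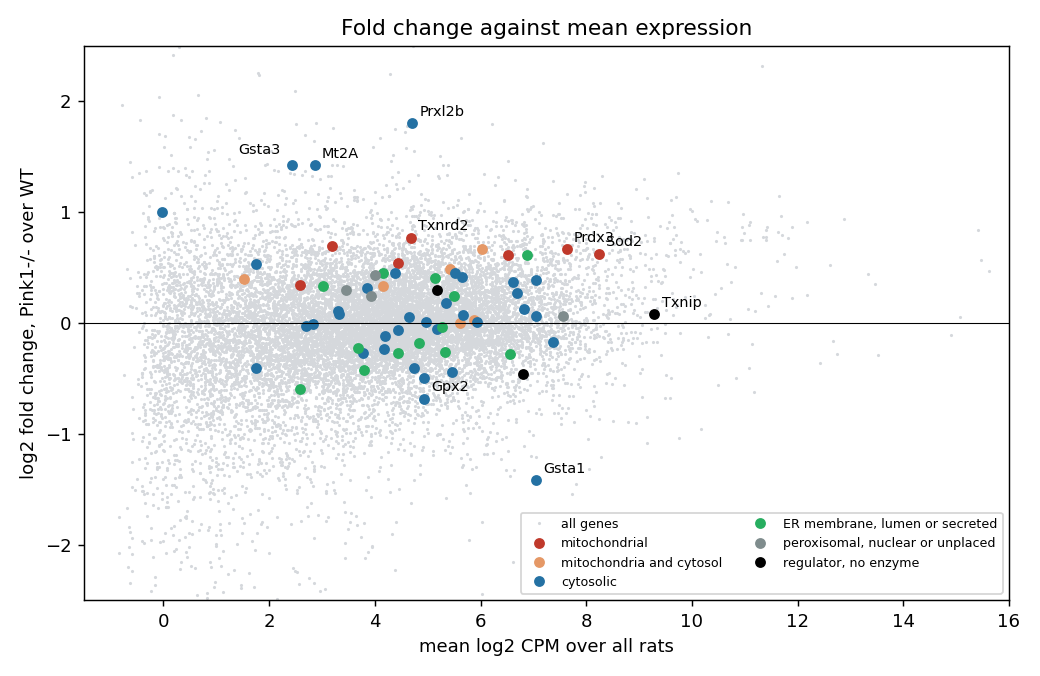
Log2 fold change of Pink1-/- over WT muscle (y axis) against mean log2 CPM over all rats (x axis) for all genes (grey) and for the 68 antioxidant genes, coloured by the place of the protein. Genes beyond a log2 fold change of 2.5 in either direction lie outside the axis; Prxl2b at 1.81 and Gsta1 at -1.42 stand apart from the other antioxidant genes of like level.

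The promoters of the called genes are shown because NRF2 binds antioxidant response elements, whose core is TGACNNNGC, and NRF2 targets make up much of the set. Sequences are the RefSeq promoters of assembly GRCr8, 250 bases before to 50 after the annotated start, 5′ to 3′ on the strand of the gene; 58 of the 68 genes had one. Capitals mark matches, on either strand, to the antioxidant response element core, to TNAAGGTCA, the extended half-site of the nuclear receptor ERR, or to GCGCANGCG, the core of the motif of NRF1; no matches of different motifs overlap in the promoters printed. The promoter of Gsta1 lies at chr9:31216483-31216782 on the minus strand, that of Prxl2b at chr5:170747507-170747806 on the minus strand and that of Txnrd2 at chr11:96072426-96072725 on the minus strand. The promoter of Msrb2, a mitochondrial methionine sulfoxide reductase, at chr17:86882502-86882801 on the plus strand, is added since it alone among the mitochondrial genes held 2 different motifs.
Gsta1: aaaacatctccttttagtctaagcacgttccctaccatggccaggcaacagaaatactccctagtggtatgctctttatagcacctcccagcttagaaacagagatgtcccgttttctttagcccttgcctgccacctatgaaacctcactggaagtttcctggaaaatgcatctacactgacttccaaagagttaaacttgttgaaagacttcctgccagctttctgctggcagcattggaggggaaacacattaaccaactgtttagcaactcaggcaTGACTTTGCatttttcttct
Prxl2b: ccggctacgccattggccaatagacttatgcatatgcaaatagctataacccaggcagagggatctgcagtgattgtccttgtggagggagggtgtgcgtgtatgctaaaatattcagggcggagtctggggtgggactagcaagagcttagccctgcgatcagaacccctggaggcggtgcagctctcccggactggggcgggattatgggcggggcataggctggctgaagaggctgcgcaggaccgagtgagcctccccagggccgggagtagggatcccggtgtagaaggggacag
Txnrd2: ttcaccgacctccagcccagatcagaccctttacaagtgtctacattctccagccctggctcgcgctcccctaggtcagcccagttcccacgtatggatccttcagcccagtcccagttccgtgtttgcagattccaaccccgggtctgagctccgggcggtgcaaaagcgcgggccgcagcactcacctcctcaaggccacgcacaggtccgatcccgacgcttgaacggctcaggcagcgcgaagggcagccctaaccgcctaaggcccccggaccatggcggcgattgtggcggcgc
Msrb2: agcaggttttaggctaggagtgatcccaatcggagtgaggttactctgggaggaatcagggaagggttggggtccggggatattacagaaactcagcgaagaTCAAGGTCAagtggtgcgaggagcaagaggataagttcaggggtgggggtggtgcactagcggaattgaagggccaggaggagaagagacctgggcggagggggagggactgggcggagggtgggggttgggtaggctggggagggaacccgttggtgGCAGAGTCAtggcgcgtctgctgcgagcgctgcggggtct

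The core TGACNNNGC was found in 20 of the 58 promoters (34.5%), against 14.7% of the 10573 promoters of genes in the authors' table and 12.1% of all 33469 promoters of the same length. Median GC content was 58.7% in the promoters of the set and 60.7% in those of all genes in the table. In Gsta1 the match begins at base 31 after the start. The matches of several family members, read 5′ to 3′ with the fixed bases of the core in capitals, show how the middle bases vary.
Gsta1: TGACtttGC
Gsta3: TGACttcGC
Gstp1: TGACtcaGC
Prdx1: TGACtcaGC
Gclm: TGACtaaGC
Gpx2: TGACttaGC
Prdx5: TGACtctGC
Msrb2: TGACtctGC
Sod2: TGACcctGC

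The 20 genes with a match had a median log2 fold change of 0.03 with 11 above 0 and 1 called, Gsta1. The 38 genes without one had a median of 0.29 with 28 above 0 and 2 called. With equal sums the medians were -0.18 with a match and 0.08 without. Of the 7 mitochondrial genes, 2 held the core (Sod2 and Msrb2), as did 11 of the 32 cytosolic genes with a promoter. The ERR half-site occurred in 2 promoters, Msrb2 and Gpx2, against 0.634% of promoters of genes in the table, and the NRF1 core in 7, against 12.2%. A match describes these letters only, and the lack of one covers only the 250 bases before and 50 after the start. Nqo1, used as a readout of NRF2, was among the genes without the core TGACNNNGC there.

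The mitochondrial enzymes are taken first by pathway. Sod2, the manganese superoxide dismutase of the matrix, had an implied 380 CPM in Pink1-/- and 246 CPM in WT muscle. Prdx3, the matrix peroxiredoxin, had 251 CPM in Pink1-/- and 158 CPM in WT muscle, and Txn2, the thioredoxin that reduces it, had 115 CPM in Pink1-/- and 75.2 CPM in WT muscle. Txn2 is in turn the substrate of Txnrd2. The 3 genes stood above the WT level by a like factor, 1.55-fold for Sod2, 1.59-fold for Prdx3 and 1.53-fold for Txn2. None of the 3 was called: the adjusted p-values in the authors' deposited table were 0.203 for Sod2, 0.120 for Prdx3 and 0.124 for Txn2.

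Glrx5, a glutaredoxin of iron-sulfur cluster assembly, had 26.3 CPM in Pink1-/- and 18.0 CPM in WT muscle, and Msrb2 had 11.7 CPM in Pink1-/- and 7.22 CPM in WT muscle. Glrx2, the other mitochondrial glutaredoxin, had 6.80 CPM in Pink1-/- and 5.36 CPM in WT muscle and had the lowest log2 fold change of the 7, at 0.34 in the authors' deposited table. Glrx5 stood at 0.55 and Msrb2 at 0.69 in the authors' deposited table, neither of them called. The 7 genes thus spanned 0.34 to 0.77. As deposited, at an unadjusted p under 0.05, 6 of the 7 were higher, all but Glrx2, against 9.04% of all genes. Their intervals, derived from the same likelihood ratios, excluded 0 in the same 6 genes and add nothing to this. The count was not repeated with equal sums or after division of the likelihood ratios by 1.96. The smallest adjusted p of the 7, that of Txnrd2, was 0.141 with equal sums and 0.730 after the division. Summed over the 7 genes, implied expression was 825 CPM in Pink1-/- and 530 CPM in WT muscle. All 7 also stayed above 0 with equal sums, with a median of 0.42, although none was called.

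**Figure D3:**
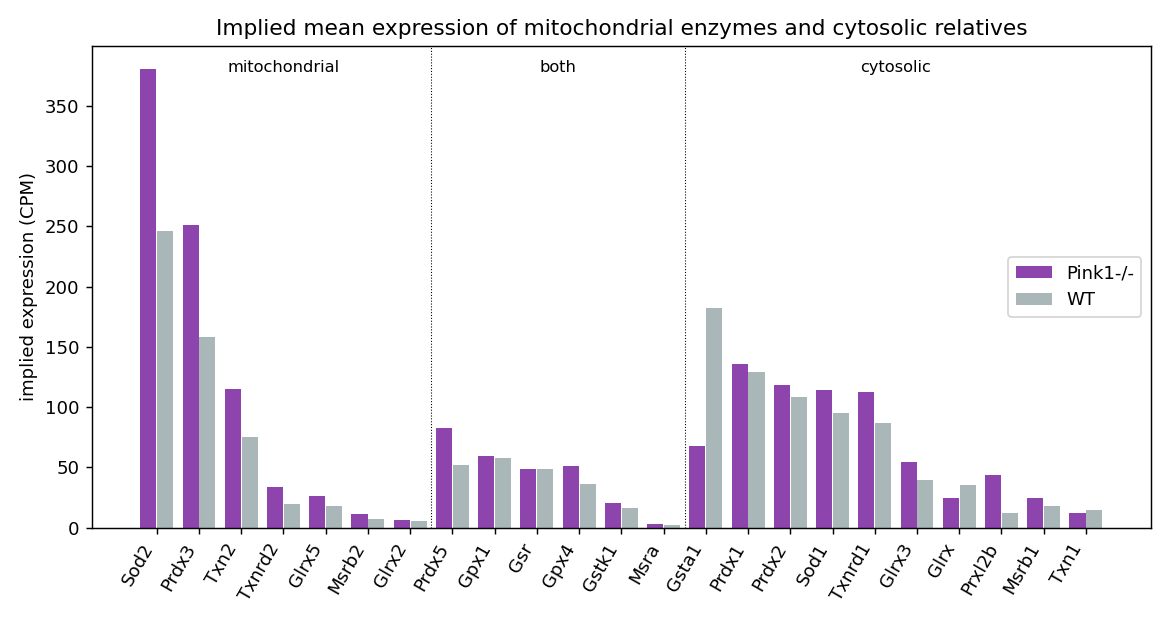
Implied expression in CPM (y axis, from 0) of mitochondrial enzymes and of cytosolic enzymes related to them or called, in Pink1-/- (purple) and WT (grey) muscle. Between them stand enzymes of both mitochondria and cytosol, with Gstk1, of mitochondria and peroxisomes. Bars are group levels without an error, since values per rat were not analysed, and CPM are not per length, so only the bars of the same gene compare; each mitochondrial gene has the taller bar in Pink1-/- muscle, and Gsta1 has 68.1 CPM in Pink1-/- against 182 CPM in WT muscle.

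Other nuclear genes for mitochondrial proteins had similar log2 fold changes in the same comparison. The 35 structural subunits of complex I had a median log2 fold change of 0.66, all above 0 with 7 called higher, and the 71 mitochondrial ribosomal protein genes had a median of 0.47, with 70 above 0 and 3 called higher, against 1.37% of all genes. With equal sums complex I had a median of 0.45 and 1 call, against 0.429% of all genes called higher. The mitochondrial ribosomal protein genes then had a median of 0.26 and 0 calls. As deposited, 31 of the 35 complex I genes were higher at an unadjusted p under 0.05 in the authors' edgeR fit. So were 36 of the 71 mitochondrial ribosomal protein genes, against 9.04% of all genes. The 71 cytosolic ribosomal protein genes had a median of -0.04. The median of the mitochondrial antioxidant genes, 0.63, therefore lay between those of the other 2 mitochondrial sets. Muscle fibre markers lay above 0 too as deposited. Of 8 listed, 7 were measured and Ttn was not found. All 7 lay above 0 with a median of 0.87, and none was called. Their summed implied levels were 22147 CPM in Pink1-/- and 12598 CPM in WT muscle. With equal sums 6 of the 7 muscle fibre markers lay above 0, with a median of 0.66. The part of mitochondrial content or of muscle fibre content in the values of the antioxidant genes was not tested.

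**Figure D4:**
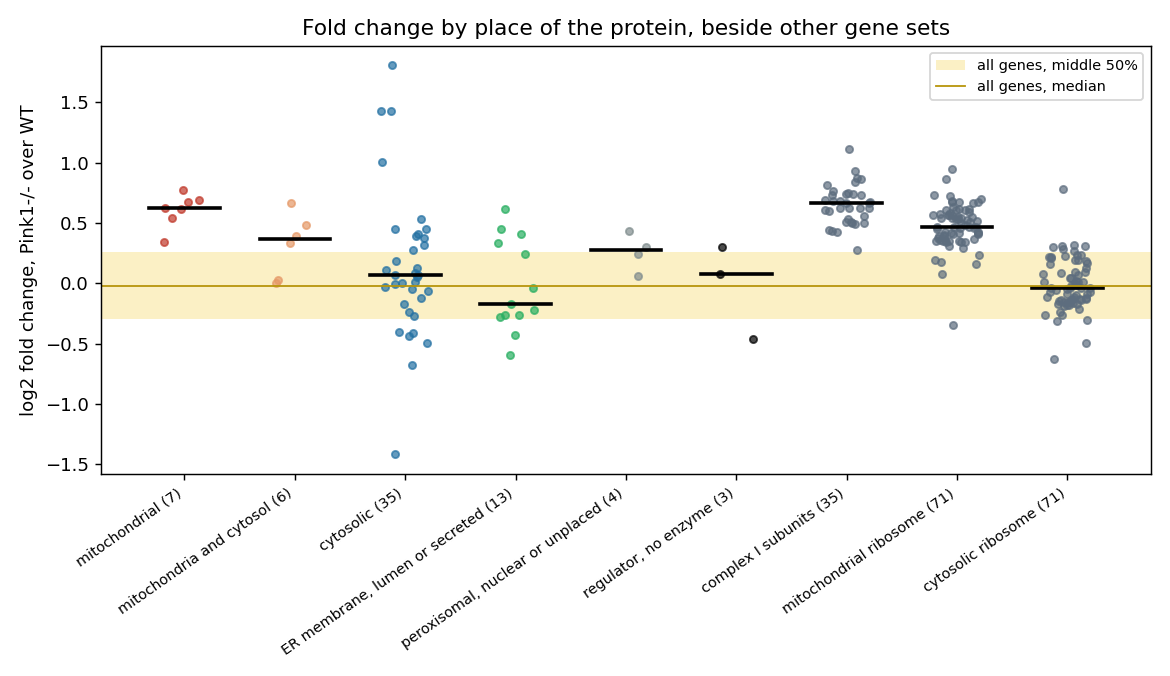
Log2 fold change of Pink1-/- over WT muscle (y axis) for the 68 antioxidant genes by the place of the protein, beside 3 other gene sets; each point is a gene, black lines are medians, the yellow band holds the middle 50% of all genes, and numbers in brackets count genes. The mitochondrial antioxidant genes (median 0.63) sit with complex I subunits (0.66), and the cytosolic genes (0.07, or -0.14 with equal sums) spread around the median of all genes. Gstk1, of mitochondria and peroxisomes, is counted with the genes of mitochondria and cytosol.

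Enzymes known in mitochondria and also in the cytosol or, for Gstk1, in peroxisomes gave mixed values. Prdx5, a peroxiredoxin of mitochondria, peroxisomes and cytosol, had 82.4 CPM in Pink1-/- and 51.9 CPM in WT muscle (adjusted p 0.0937 in the authors' deposited table). Gpx4, which reduces lipid hydroperoxides in membranes and has a mitochondrial form, had 51.3 CPM in Pink1-/- and 36.6 CPM in WT muscle (adjusted p 0.194 in the authors' deposited table). In contrast, Gpx1 had 59.1 CPM in Pink1-/- and 58.2 CPM in WT muscle, and Gsr, which recycles oxidised glutathione, had 48.9 CPM in Pink1-/- and 49.0 CPM in WT muscle. Gstk1, a transferase of mitochondria and peroxisomes, stood at 0.33 and Msra at 0.39 in the authors' deposited table. The 6 genes had a median of 0.36, and 0.15 with equal sums, and none was called.

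Cytosolic relatives of the mitochondrial enzymes were set beside them in 8 pairs, chosen after the values were seen. The mitochondrial gene had the larger log2 fold change in all 8, and the approximate 95% interval of the difference excluded 0 in 2 of them. The count of 8 depends on how the glutaredoxins were paired. Glrx2, at 0.34, was set against Glrx and lay below Glrx3, the other cytosolic glutaredoxin, at 0.45 in the authors' deposited table. Txn2 exceeded Txn1, the cytosolic thioredoxin, by 0.89 (interval 0.24 to 1.54), and Glrx2 exceeded Glrx by 0.84 (0.01 to 1.67). For Prdx3 the difference was 0.60 from Prdx1 (-0.04 to 1.25) and 0.54 from Prdx2 (-0.08 to 1.17). Sod2 and the copper-zinc enzyme Sod1 differed by 0.35 (-0.33 to 1.04), and the reductases Txnrd2 and Txnrd1 by 0.40 (-0.24 to 1.04). The smallest differences were those of Msrb2 from Msrb1 (0.24, from -0.47 to 0.96) and of Glrx5 from Glrx3 (0.09, from -0.51 to 0.70). The 2 pairs that excluded 0 had the widest gaps in mean log2 CPM, 2.76 for Txn2 minus Txn1 and -2.36 for Glrx2 minus Glrx. The 8 pairs are not separate, since Prdx3 is set against both Prdx1 and Prdx2. These intervals treat the genes of a pair as independent, although both were measured in the same rats. They are not adjusted for the number of pairs, nor widened for the median excess of the likelihood ratios, 1.96.

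**Figure D5:**
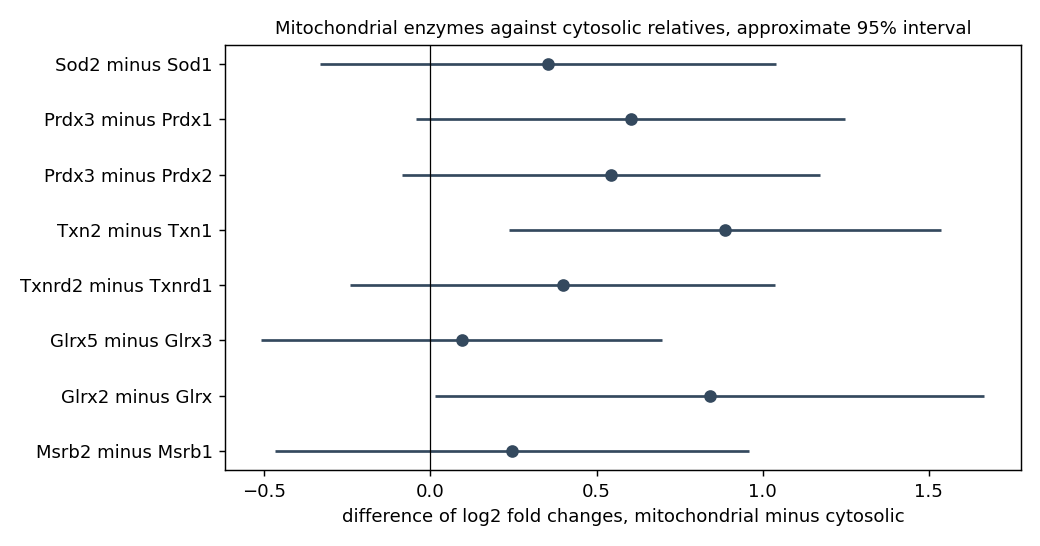
Difference between the log2 fold changes (Pink1-/- over WT) of a mitochondrial enzyme and of a cytosolic relative (x axis) in 8 pairs. The pairs were chosen after the values were seen. Points are differences and bars approximate 95% intervals. All 8 points lie right of 0, and only the bars of Txn2 minus Txn1 and Glrx2 minus Glrx clear it.

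The remaining peroxide-removing enzymes held no call. Among cytosolic peroxiredoxins, Prdx1 had 135 CPM in Pink1-/- and 129 CPM in WT muscle, Prdx2 had 119 CPM in Pink1-/- and 109 CPM in WT muscle, and Prdx6, which reduces phospholipid peroxides, had 152 CPM in Pink1-/- and 116 CPM in WT muscle. Catalase, the peroxisomal enzyme encoded by Cat, had 194 CPM in Pink1-/- and 186 CPM in WT muscle. With equal sums Prdx1, Prdx2 and Cat lay below 0. Of the glutathione peroxidases outside mitochondria, all 4 lay below 0: Gpx2, the form of epithelia, had 22.7 CPM in Pink1-/- and 36.4 CPM in WT muscle, Gpx7 and Gpx8 of the endoplasmic reticulum stood at -0.59 and -0.43, and plasma-type Gpx3 at -0.04 in the authors' deposited table. Gpx2 had an unadjusted p under 0.05, but its adjusted p was 0.234 in the authors' deposited table. In the same comparison all 9 measured markers of squamous epithelium lay below 0. Those of respiratory epithelium and gland lay on both sides, 7 of 9 below 0. The part of epithelium in the value of Gpx2 was not tested. The extracellular dismutase gene Sod3 stood at -0.26 and Prdx4, of the endoplasmic reticulum, at -0.22 in the authors' deposited table. In all, the 13 genes for proteins of the endoplasmic reticulum or outside the cell had a median of -0.18, with 5 above 0 and none called.

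Glutathione synthesis held no call. Gclc, the catalytic subunit of the rate-limiting ligase, had 36.8 CPM in Pink1-/- and 49.8 CPM in WT muscle (adjusted p 0.329 in the authors' deposited table). Its partner Gclm stood at 0.05 and the synthetase gene Gss at 0.09 in the authors' deposited table, and both lay below 0 with equal sums. The 15 glutathione transferases had a median of -0.01, with 7 above 0, and their summed implied level was 508 CPM in Pink1-/- and 620 CPM in WT muscle. Gsta3, of the same class, stood at 1.43 in the authors' deposited table with an implied SE of 0.64 and was not called (adjusted p 0.212). Mu-class genes ranged from -0.24 in Gstm5 to 0.32 in Gstm4, with Gstm1 at 0.18 and Gstm7 at -0.17 in the authors' deposited table. Theta-class genes all lay below 0, at -0.41 in Gstt3, -0.40 in Gstt1 and -0.03 in Gstt2 in the authors' deposited table. The omega-class genes Gsto1 and Gsto2 both lay above 0; Gsto1 had 58.2 CPM in Pink1-/- and 43.7 CPM in WT muscle, and Gsto2 only 1.37 CPM in Pink1-/- and 0.681 CPM in WT muscle. Gstp1, Gsta4 and Gsta6 stood at 0.01, -0.06 and -0.01 in the authors' deposited table.

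The cytosolic thioredoxin system gave values on both sides of 0. Txnrd1 had 112 CPM in Pink1-/- and 86.9 CPM in WT muscle, whereas Txn1 had 12.2 CPM in Pink1-/- and 14.7 CPM in WT muscle, and neither was called. Txnrd3 stood at 0.11 in the authors' deposited table. Txnip, which binds and inhibits thioredoxin, had 646 CPM in Pink1-/- and 612 CPM in WT muscle, which is 0.08 in log2 units, and -0.13 with equal sums. Of the 10 thioredoxin-like genes 6 lay above 0, from -0.28 in Txndc5 to 0.45 in Txndc16, and none was called; with equal sums 4 lay above 0. They include the splicing factors Txnl4a (0.44) and Txnl4b (0.30) and the genes Txndc15 (0.41), Txnl1 (0.07), Txndc9 (0.01), Txndc17 (-0.12), Txndc12 (-0.18) and Txndc11 (-0.27), all log2 fold changes of the authors' deposited table.

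Repair of oxidised methionine was a role whose members all lay on the same side. The 4 methionine sulfoxide reductase genes had positive log2 fold changes (median 0.53), also with equal sums. Msrb3, mostly of the endoplasmic reticulum, had 147 CPM in Pink1-/- and 96.2 CPM in WT muscle (adjusted p 0.135 in the authors' deposited table). Msrb1, the selenoprotein of cytosol and nucleus, had 24.7 CPM in Pink1-/- and 18.1 CPM in WT muscle. Among cytosolic glutaredoxins, Glrx3 stood at 0.45 and Glrx at -0.50 in the authors' deposited table, neither of them called.

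The NRF2 axis itself was not called in any member. Nfe2l2 had 92.0 CPM in Pink1-/- and 126 CPM in WT muscle, which is -0.46 in log2 units (adjusted p 0.300 in the authors' deposited table, and 0.0724 with equal sums). Keap1, which holds NRF2 for degradation, had 40.7 CPM in Pink1-/- and 33.0 CPM in WT muscle. Nqo1, a quinone reductase used as a readout of NRF2, had 35.6 CPM in Pink1-/- and 36.8 CPM in WT muscle, and the heme oxygenases Hmox1 and Hmox2 stood at 0.34 and 0.25 in the authors' deposited table. Mt2A, a metal-binding metallothionein, had 11.4 CPM in Pink1-/- and 4.22 CPM in WT muscle. That is 1.43 in log2 units, with an implied SE of 0.50 (adjusted p 0.0870 in the authors' deposited table). Srxn1 and Mt1 were not found among the genes of the table.

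Genes that work beside these enzymes gave 4 calls, all higher, among the 129 measured of the 137 in 8 lists, a share of 3.10% against 3.05% of all genes. With equal sums 5 were called (4.29% of all genes), 4 of them lower (3.86% of all genes). The medians of all 8 lists then lay between -0.31 and -0.05, with the median of all genes at -0.23. Me3, the mitochondrial malic enzyme that makes NADPH, had 37.5 CPM in Pink1-/- and 22.5 CPM in WT muscle (adjusted p 0.0415 in the authors' deposited table) and was the only gene called among 17 of NADPH supply (median 0.11, 11 above 0). Among 18 other antioxidant helpers (median 0.16), Ucp3, an uncoupling protein of muscle mitochondria, had 145 CPM in Pink1-/- and 52.6 CPM in WT muscle. In the same list Tigar, which diverts glucose to NADPH supply, had 34.8 CPM in Pink1-/- and 18.5 CPM in WT muscle, and Park7 had 155 CPM in Pink1-/- and 87.9 CPM in WT muscle. With equal sums the call of Ucp3 held, and those of Me3 (adjusted p 0.147), Tigar (0.0607) and Park7 (0.129) ended. With equal sums Pon2, a paraoxonase, was called lower (adjusted p 0.0485), with 19.9 CPM in Pink1-/- and 28.8 CPM in WT muscle.

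No gene was called in the other 6 lists, whose medians ran from -0.10 to 0.13. Of 16 genes of glutathione transport, breakdown and precursors 8 lay above 0, and the smallest p was that of Oplah, which recovers glutamate from glutathione breakdown, at 0.69 (adjusted p 0.0765 in the authors' deposited table). Slc25a39, the mitochondrial glutathione carrier, stood at 0.57 (adjusted p 0.135 in the authors' deposited table). Slc7a11, the cystine importer under NRF2 control, stood at -1.14 (adjusted p 0.182 in the authors' deposited table). Of 20 other NRF2 targets 12 lay above 0, with Akr1b8 at -0.68 and Ugdh at -0.51 in the authors' deposited table, and with equal sums both were called lower. Of 16 sources of reactive oxygen species 9 lay above 0, and Duox1, an epithelial peroxide-forming oxidase, stood at -1.08 (adjusted p 0.0883 in the authors' deposited table) and was called lower with equal sums (0.0254). Other glutathione-linked enzymes (5 of 11 above 0; Glo1, of methylglyoxal removal, at 0.86), NRF2 regulators (8 of 14) and selenoprotein genes (10 of 17) had no call under either scaling, the value of Glo1 being that of the authors' deposited table.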

How the data were processed

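RNA was sequenced from the thyroarytenoid muscle of 3 Pink1-/- and 4 WT rats. Per the labels' protocols, total RNA was taken from frozen muscle and libraries were made with an Illumina TruSeq RNA kit. Per the submitters' processing notes, the authors used RSEM and edgeR 3.9; the sources used here do not state the aligner, genome build, annotation, strand setting, filter or scaling. Analysis started from the authors' deposited table of 14702 genes, which per the file headers holds a likelihood ratio score, a p-value, an adjusted p-value, a mean log2 CPM and a log2 fold change, Pink1-/- over WT. The deposited p-values equal the chi-square upper tail of the likelihood ratio with 1 degree of freedom (largest relative difference 8.29e-13).

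No symbol of the set was repeated. To get the SE, the absolute log2 fold change was divided by the root of the likelihood ratio; intervals are at 95%. Implied CPM weights 3 Pink1-/- and 4 WT rats and assumes equal library sizes. On simulated data built with the same formulas, the values put in were recovered. That covers the arithmetic only, and whether the deposited values follow these formulas was not tested. A planned test on counts was not run, since it needs values per library. Without those values, depth and precision per sample are unknown. Likelihood ratios exceeded their chi-square expectation at the median by 1.96 times. Gene names, compartments and lists were written down from textbook knowledge, and the set and the lists were chosen with earlier results of these data known. Named genes were Pink1, called members, all mitochondrial and dual members and, per role, those of highest level, smallest p, largest rise and largest fall; of the other lists, called genes and up to 3 of smallest p. Other members are given with a log2 fold change. All other marker lists written (nerve, fibroblast, adipocyte, endothelium, macrophage and erythrocyte) had medians of -1.36, -0.51, -0.71, 0.12, 0.27 and 0.35 on the log2 scale (endothelium -0.09 with equal sums). Python 3.11.15, pandas 2.3.3 and SciPy 1.17.1 were used.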

Additional observations from a re-analysis of the deposited data

How the results depend on the processing

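With scaling to equal summed CPM, the median log2 fold change of all 68 genes became -0.093 in place of 0.12 and that of the cytosolic enzymes -0.14 in place of 0.07, while the mitochondrial median was 0.42; among named members Gpx1 (-0.19), Gss (-0.13) and Txnip (-0.13) changed sign, Txnrd2 lost its call, and 2 of the 3 calls remained, Prxl2b and Gsta1. This follows from the shift itself. The mitochondrial minus cytosolic difference of medians, 0.56, cannot change under a common shift and ran from 0.48 to 0.57 when enzymes of both places were counted as mitochondrial, as cytosolic, or with a minimum mean log2 CPM of 1. Dividing likelihood ratios by 1.96 left 0 of the 68 genes called, with adjusted p-values of 0.319 for Prxl2b, 0.390 for Gsta1 and 0.730 for Txnrd2, against 17 genes at an unadjusted p under 0.05 in the authors' edgeR fit; 14 genes (0.0952%) were called in the whole table. A threshold of 0.1 gave 5 calls, adding Mt2A and Prdx5, and 0.01 gave 2. The count stayed at 3 with a minimum level, and without splicing factors and regulators. No paired analysis was possible because the table holds no values per rat, and for the same reason leaving out each replicate was not run; which rats carry a difference is unknown, and depth limits could not be assessed.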
